A study of Mus musculus with 18 samples.

Results

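The genes described here are 36 genes of the synaptic vesicle and of transmitter release, measured on microarrays of 3 mouse brain regions after MPTP or saline. They were listed by gene symbol, and the list was drawn up with earlier results of these data known. The rule uses measured values only to pick the probe set of a gene, not the genes. All 36 were found among the 18194 genes with a probe set of their own, through 97 probe sets, and each gene is represented by the probe set with the highest mean over the 18 arrays. By role they comprise 7 vesicle membrane proteins (Syp, Synpr, Syngr1, Syngr3, Sv2a, Sv2b, Sv2c), 3 synapsins (Syn1, Syn2, Syn3) and 8 calcium sensors and relatives (Syt1, Syt2, Syt4, Syt5, Syt7, Syt11, Doc2b, Rph3a). There are 4 SNAREs (Stx1a, Snap25, Vamp1, Vamp2), 4 factors of SNARE assembly and recycling (Cplx1, Cplx2, Nsf, Napb) and 5 active zone proteins (Unc13a, Rims1, Rims2, Bsn, Pclo). The remaining 5 are the small GTPases Rab3a and Rab3c and the endocytic genes Amph, Dnm1 and Synj1.

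A nerve terminal stores transmitter in synaptic vesicles. Synapsins tether the vesicles in a reserve pool, Rab3 proteins with RIM, Munc13, Bassoon and Piccolo bring them to the active zone, and the vesicle SNARE (a VAMP) pairs with syntaxin and SNAP-25 on the plasma membrane to drive fusion. Complexin holds the assembled SNAREs ready, a synaptotagmin triggers fusion when calcium enters, NSF with its SNAP adaptors takes the SNAREs apart, and amphiphysin, dynamin and synaptojanin help to retrieve the membrane. The messenger RNA for these proteins is made in the nerve cell body, which for many terminals lies in another region: dopamine terminals of the striatum have their cell bodies in the midbrain, and many glutamate terminals there come from the cortex.

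The animals were male C57BL/6J mice aged 14 weeks. Those of the MPTP groups received 30 mg/kg MPTP intraperitoneally, a toxin whose metabolite enters dopamine neurons through the dopamine transporter, once daily for 5 days, and those of the saline groups received saline by the same route. Frontal cortex, striatum and midbrain were taken 4 days after the last injection. With 3 animals per treatment and 1 array per animal and region, the 6 groups held 3 arrays each: frontal cortex, striatum and midbrain of saline animals, and the same regions of MPTP animals. Total RNA was hybridised to Affymetrix arrays as biotin-labelled cRNA.

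The values are log2 intensities, so a difference of 1 is a doubling. The correlation between arrays of a group was 0.991 to 0.997, and array medians lay between 5.14 and 5.21. In saline animals all 10 tested markers of striatal spiny neurons were higher in striatum than in cortex, 5 of 6 tested markers of midbrain dopamine neurons were higher in midbrain than in cortex, and 8 of 10 tested cortical glutamatergic markers were lower in striatum than in cortex. Th, the enzyme that makes the dopamine precursor, differed by -0.82 between MPTP and saline midbrain, which did not pass the test (limma, adjusted p = 0.133). The number of arrays limits the precision. In bulk tissue, fewer cells of a type and less RNA per cell cannot be told apart.

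Of the 36 genes, 35 passed the filter on dim genes, a mean of at least 5.18 in 1 or more regions, and were tested with the other genes of the filtered table, 11741 in all. Sv2c, a vesicle protein of restricted distribution, was dim, at 3.72 to 4.51 on the 18 arrays, and was not tested. A gene is called higher or lower where its Benjamini-Hochberg adjusted p from limma over those 11741 genes was under 0.05.

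**Figure D1:**
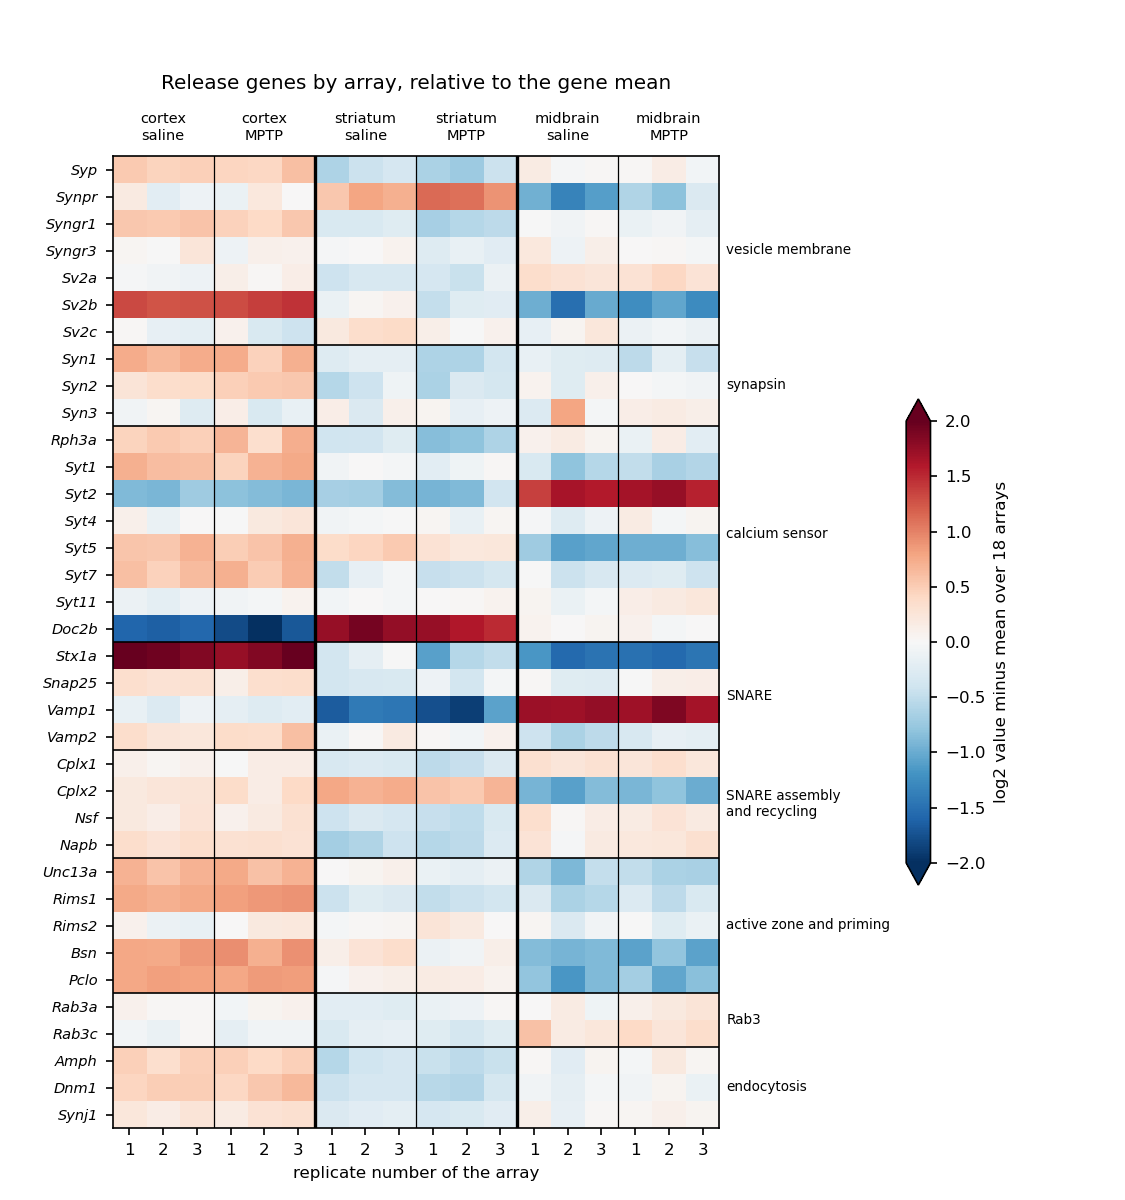
Log2 value of each of the 36 genes on each of the 18 arrays, minus the gene's mean over all arrays (colour, cut at 2 in either direction), with genes in rows by role and arrays in columns by region, treatment and replicate number. The columns differ mainly by region: Stx1a and Sv2b are highest in cortex, Doc2b in striatum, and Vamp1 and Syt2 in midbrain.

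In the striatum, MPTP arrays were lower than saline arrays for 4 of the 35 genes, and none was called higher. The genes that fell were the plasma membrane SNARE syntaxin 1A (Stx1a), the Rab3 effector rabphilin (Rph3a), synapsin I (Syn1), which ties vesicles to the cytoskeleton, and the vesicle membrane protein synaptogyrin 1 (Syngr1). Among all genes tested, 0.809% were called lower in the striatum and 1.29% higher. The 4 genes come from 4 of the role groups. The median difference of the 35 genes was -0.07, against -0.03 for all genes tested, and 25 of the 35 differences were negative.

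Stx1a stood at 9.25, 9.43 and 9.60 on the saline arrays of the striatum and at 8.52, 9.04 and 9.11 in MPTP striatum. Every MPTP array lay below every saline array, and the first MPTP array was the lowest. The difference was -0.53 (SE 0.12), or 1.45-fold lower, with an adjusted p of 0.0224. Without the first MPTP array it was -0.35 (adjusted p = 0.126). Of the other genes that fell, Rph3a had values of 9.31, 9.32 and 9.47 in saline and 8.85, 8.90 and 9.10 in MPTP striatum. These groups did not overlap either. The difference was -0.42 (SE 0.098, adjusted p = 0.0242).

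For Syn1 the saline arrays of the striatum read 10.42, 10.50 and 10.49 and the MPTP arrays 10.06, 10.07 and 10.31, a difference of -0.33 (SE 0.086, adjusted p = 0.0468). Syngr1 had 10.26, 10.26 and 10.33 against 9.90, 10.00 and 10.04, a difference of -0.31 (SE 0.062, adjusted p = 0.0117). For both genes the MPTP arrays all lay below the saline arrays, and for Syn1 the third MPTP array came closest to the saline range. Syngr1 had the smallest difference of the 4 and also the smallest standard error.

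A second probe set measured 3 of these genes. For Stx1a, whose main probe set is of a type that Affymetrix marks as able to match other transcripts, the second one fell too, by 0.68 (adjusted p = 0.00959 over all probe sets that passed the filter). Its values were 8.08, 8.26 and 8.57 in saline and 7.26, 7.89 and 7.70 in MPTP striatum, again without overlap. The second probe sets of Syngr1 (-0.28) and Rph3a (-0.14) had the same sign and did not pass. Syn1 has 1 probe set. Over all 36 genes, 49 further probe sets of 27 genes passed the filter, and that of Stx1a was the one called in the striatum, where 0.611% of 20778 probe sets were called lower and 1.5% higher. Their differences ranged from -0.68 to 0.46. The highest was that of the second Syt4 probe set, not called, with 7.86, 7.59 and 8.07 in saline and 8.40, 8.18 and 8.30 in MPTP striatum.

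Counted by overlap alone, 11 of the 35 genes had saline and MPTP striatal arrays that did not overlap, 9 lower and 2 higher with MPTP, where 23.2% of all genes had no overlap in either direction. Beside the 4 called genes, the 5 lower ones were Syngr3, Sv2b, Syt5, Unc13a and Cplx2, and the higher ones were Synpr and Rab3a. None of these 7 passed the test. For Rab3a the sign depends on the probe set: the main one, of the same type as that of Stx1a, gave 0.15 and the second -0.13. Sv2b, a transporter-like vesicle protein, had a difference of -0.31 (adjusted p = 0.127), and Bsn, the active zone scaffold Bassoon, -0.27 (adjusted p = 0.108) with overlapping groups. Synpr, the synaptophysin relative synaptoporin, differed by 0.36 (adjusted p = 0.134) in the opposite direction.

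By the main probe sets, the core of the fusion machinery other than Stx1a gave small differences in the striatum. Snap25, the other plasma membrane SNARE, differed by 0.16, and the vesicle SNAREs Vamp1 and Vamp2 by -0.06 and -0.00. The main calcium sensors Syt1 and Syt2 differed by -0.06 and 0.01, and the endocytic genes Amph, Dnm1 and Synj1 by -0.03, -0.13 and -0.05. None of these passed. Some of their other probe sets gave larger negative differences: -0.24 for Vamp2 (adjusted p = 0.195 over all probe sets), -0.27 and -0.42 for Syt2 (0.348 and 0.168) and -0.30 for Dnm1 (0.108). None of those passed either, and the size of these differences depends on the probe set.

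The striatal calls depended on single arrays. Without the first MPTP array, or without the third saline array, none of the 35 genes was called; 1 was called without the second saline array, 2 without the first saline or the second MPTP array, and 4 without the third MPTP array. Averaging all probe sets of a gene left 1 call, as did a fit without the intensity trend, while a second quantile normalization gave 7, all lower.

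Lists of cell type markers were set beside these genes in the striatum. The cortical glutamatergic list, genes of neurons that the striatum itself hardly contains, had a median difference of -0.41 with MPTP, with 9 of its 10 tested differences negative and none called; its most different member by p was Nrn1 (-1.13, adjusted p = 0.0554). The mean log2 level of that list ranged from 6.73 to 7.25 in saline and from 5.86 to 6.91 in MPTP striatum, and Tbr1 and Fezf2 were below the filter value on all arrays of both groups. Array by array, the mean deviation of the 4 called genes from the saline mean was -0.55, -0.39 and -0.25 in MPTP replicates 1, 2 and 3, and the median deviation of the cortical list was -0.97, -0.30 and -0.05. The 4 genes were picked for their falls on these same arrays, and whether they and the list move together was not tested.

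The list for excitatory neurons of midbrain and thalamus, dim in this region, had negative differences for all 5 tested genes, 1 of them called (Slc17a6), and a median difference of -0.22. Its mean log2 level ranged from 4.96 to 5.29 in saline and from 4.74 to 4.89 in MPTP striatum, and Tcf7l2 and Shox2 were below the filter value on all arrays of both groups.

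Glial markers went the other way. Of the tested markers, 4 of 8 for astrocytes, 5 of 7 for oligodendrocytes, 4 of 7 for microglia and 2 of 5 for endothelial cells were called higher in MPTP striatum, and none lower. Gfap, the intermediate filament of reactive astrocytes, rose by 1.17 (adjusted p = 6.32e-05). The mean log2 level ranged from 9.65 to 9.82 in saline and from 9.97 to 10.29 in MPTP striatum for astrocytes, from 10.56 to 10.60 and from 10.99 to 11.05 for oligodendrocytes, from 8.46 to 8.56 and from 8.70 to 9.01 for microglia, and from 7.43 to 7.51 and from 7.51 to 7.99 for endothelial cells. Every one of these markers was above the filter value on at least 1 array of each striatal group. The striatal spiny neuron list, the principal neurons of the region, had 0 of 10 genes called in either direction and a median difference of 0.02. The part of these neuronal and glial markers in the falls was not tested.

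**Figure D2:**
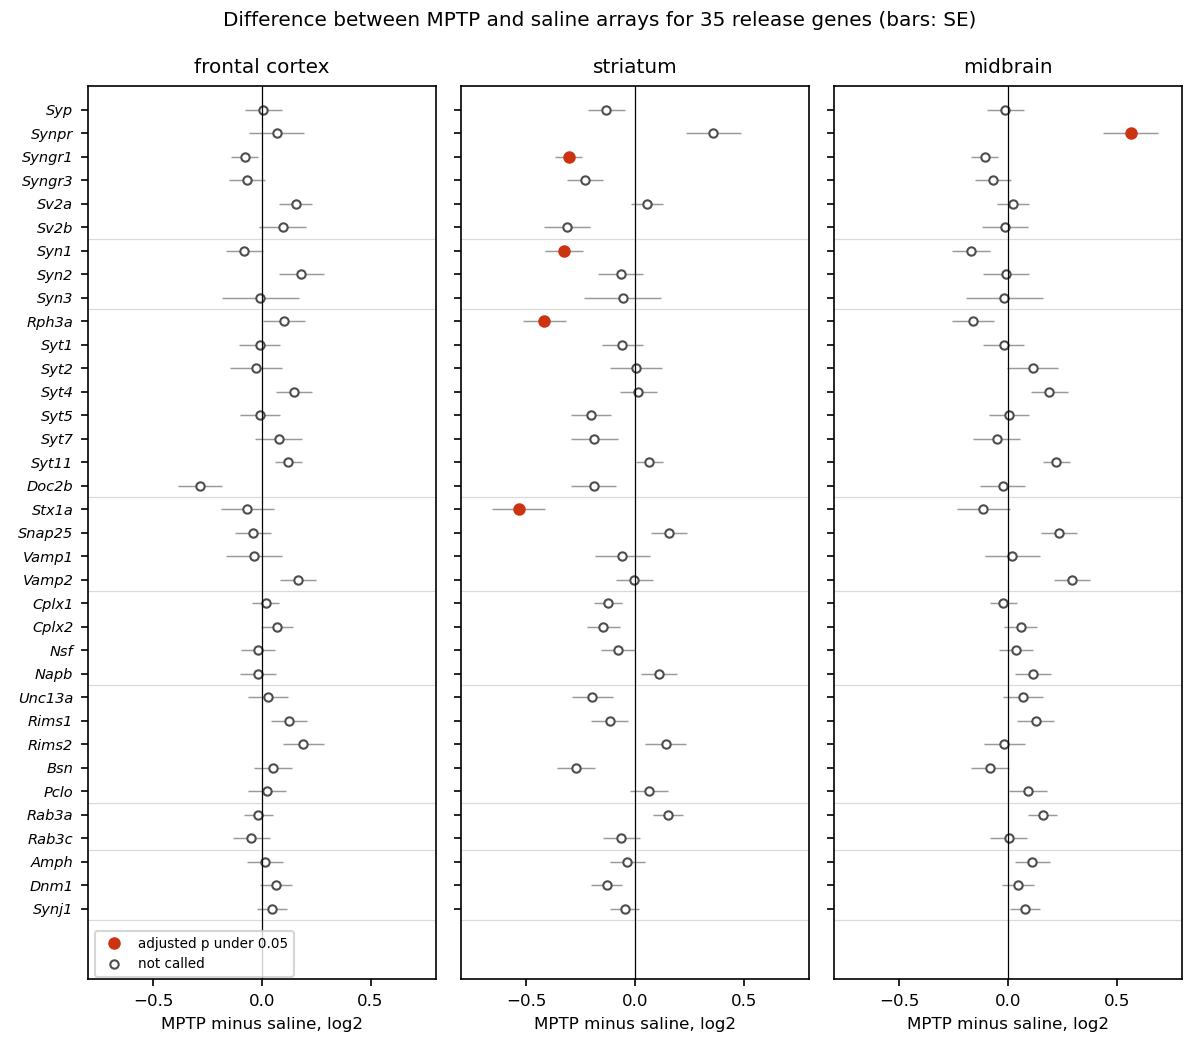
Difference between MPTP and saline arrays on the log2 scale (horizontal axis, bars are 1 SE) for 35 genes in frontal cortex, striatum and midbrain, 3 arrays per group, with grey lines between role groups. Filled points passed the test: Stx1a, Rph3a, Syn1 and Syngr1 in striatum, on the negative side, and Synpr in midbrain, on the positive side.

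The sequence before the start site is shown for the 4 genes that fell together in the striatum and for Synpr, which rose in the midbrain. The windows are the 250 bases before the RefSeq start on the GRCm38.p6 build, written 5′ to 3′ on the gene's strand, and where a gene has several windows the one furthest upstream is shown. They lie at chr5:135023232-135023481 (plus strand) for Stx1a, chr5:121010093-121010342 (minus) for Rph3a, chrX:20920919-20921168 (minus) for Syn1, chr15:80091084-80091333 (plus) for Syngr1 and chr14:13284530-13284779 (plus) for Synpr. Capitals mark matches to 1 of 5 motifs searched on both strands: TGACGTCA, the cAMP response element; GCGTGGGCG and GCGGGGGCG, sites of the EGR factors; CAGCACC, part of the element of the neuronal gene repressor REST; and GGGCGG, the GC box, which can overlap the EGR forms.
Stx1a: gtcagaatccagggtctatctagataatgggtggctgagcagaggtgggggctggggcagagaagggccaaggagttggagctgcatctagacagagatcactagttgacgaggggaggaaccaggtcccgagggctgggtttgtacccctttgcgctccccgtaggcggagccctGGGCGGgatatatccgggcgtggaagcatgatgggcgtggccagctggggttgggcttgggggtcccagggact
Rph3a: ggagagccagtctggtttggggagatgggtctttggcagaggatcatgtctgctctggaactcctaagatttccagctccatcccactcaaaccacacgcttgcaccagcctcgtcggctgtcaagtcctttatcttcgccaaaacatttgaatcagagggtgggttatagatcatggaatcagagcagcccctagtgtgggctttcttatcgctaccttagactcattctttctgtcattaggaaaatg
Syn1: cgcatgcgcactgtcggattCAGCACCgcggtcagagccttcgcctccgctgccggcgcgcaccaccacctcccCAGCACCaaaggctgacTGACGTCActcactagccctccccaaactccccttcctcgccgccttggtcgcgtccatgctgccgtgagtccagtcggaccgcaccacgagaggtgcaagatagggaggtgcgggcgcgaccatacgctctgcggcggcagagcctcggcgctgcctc
Syngr1: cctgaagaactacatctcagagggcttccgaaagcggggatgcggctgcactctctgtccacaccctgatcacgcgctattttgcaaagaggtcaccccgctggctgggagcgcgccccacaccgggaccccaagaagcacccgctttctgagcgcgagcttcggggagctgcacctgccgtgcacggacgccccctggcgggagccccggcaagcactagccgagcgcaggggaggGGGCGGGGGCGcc
Synpr: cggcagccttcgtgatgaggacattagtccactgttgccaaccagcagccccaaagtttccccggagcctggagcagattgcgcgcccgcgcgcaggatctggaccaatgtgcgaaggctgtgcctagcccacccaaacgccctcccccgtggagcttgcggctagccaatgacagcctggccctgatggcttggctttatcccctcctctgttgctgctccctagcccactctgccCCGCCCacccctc
The Syn1 window holds the cAMP response element, its first base 159 before the start, and the REST part at 230 and 176 before it. In Syngr1 a GC box at 13 and the second EGR form at 11 before the start overlap. Stx1a and Synpr each hold a GC box, at 74 and at 13 before the start, and the Rph3a window shown holds none of the 5 motifs.

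No motif was common to the 4 windows of the genes that fell. Windows were found for 27 of the 36 genes, 38 windows in all. Of them 20 held the GC box (52.6%), against 32.7% of the 32851 windows of all genes. The REST part was in the windows of 3 genes (Rph3a, in another of its windows, Sv2c and Syn1), against 5.73% of all windows, and the cAMP response element in that of Syn1 alone, against 1.55%. The EGR forms were in those of Synj1 and Unc13a (first form, 0.536% of all windows) and of Syn2 and Syngr1 (second form, 2.57%). A match is a description of the letters, not a binding site.

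By the main probe sets, 1 of the 35 genes was called in the midbrain, Synpr, which was higher after MPTP. Among all genes tested 2.15% were called higher and 0.383% lower there. Synpr stood at 7.93, 7.56 and 7.79 in saline and at 8.29, 8.08 and 8.61 in MPTP midbrain. All MPTP arrays lay above all saline arrays. The difference was 0.56 (SE 0.13, adjusted p = 0.0186), or 1.48-fold higher. The gene has 1 probe set.

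The median difference of the 35 genes in the midbrain was 0.02, against 0.03 for all genes tested, with 20 positive and 15 negative. Groups did not overlap for 3 genes, all higher with MPTP: Synpr, Syt11 and Vamp2, where 16.3% of all genes had no overlap in either direction. Stx1a, Rph3a, Syn1 and Syngr1, the genes that fell in the striatum, differed by -0.11, -0.16, -0.17 and -0.11 in the midbrain and none was called by its main probe set. By these probe sets their midbrain groups overlapped.

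Of the 49 other probe sets, 1 was called higher in the midbrain, for Syt4, and 2 lower, for Syngr1 and Vamp2, where 3.55% of all probe sets were called higher and 0.683% lower. Syt4 is a synaptotagmin found on dense-core vesicles. Its second probe set read 8.25, 7.81 and 7.80 in saline and 8.42, 8.61 and 8.85 in MPTP midbrain, without overlap, a difference of 0.68 (adjusted p = 0.00706 over all probe sets), larger than that of Synpr. Its main probe set gave 0.19 and was not called. The second probe set of Syngr1 read 7.94, 7.74 and 8.07 in saline and 7.57, 7.55 and 7.40 in MPTP midbrain, also without overlap, a difference of -0.41 (adjusted p = 0.0445). For Syngr1 both probe sets thus had negative differences in striatum and midbrain, the main one called in the striatum and the second in the midbrain.

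The Synpr call was lost without saline replicate 2, saline replicate 3 or MPTP replicate 3 (differences of 0.46, 0.58 and 0.42), when no gene was called; 4 genes were called without the first saline array. Array weights gave 5 calls, the 75th percentile filter 3, centring on the array median 2, the replicate number as a block 2, all higher, and the mean over probe sets 0. Beside Synpr, marker genes called in the midbrain were Gad1, the enzyme that makes GABA (0.49, adjusted p = 0.0189), Tac1, the substance P precursor of spiny neurons (0.64, adjusted p = 0.0111), Gja1 and Slc1a2 of astrocytes, and C1qa of microglia, all higher. The mean log2 level of the GABAergic list, with 1 of 6 genes called, ranged from 9.41 to 9.62 in saline and from 9.61 to 9.81 in MPTP midbrain, that of the spiny list, 1 of 10 called, from 7.03 to 7.16 and from 7.16 to 7.22, that of the astrocyte list, 2 of 8, from 10.36 to 10.57 and from 10.65 to 10.70, and that of the microglial list, 1 of 7, from 7.86 to 8.14 and from 8.18 to 8.34. With no gene called, the level of the oligodendrocyte list ranged from 11.06 to 11.19 in saline and from 11.22 to 11.27 in MPTP midbrain, that of the endothelial list from 7.51 to 7.83 and from 7.85 to 8.12, and that of the dopamine neuron list from 9.01 to 9.39 and from 8.82 to 9.02. The 4 glial and endothelial lists did not overlap between saline and MPTP midbrain, and the 3 neuronal ones did. Of these lists only Gpr6 of the spiny list was below the filter value on all arrays of both midbrain groups. Their part in the Synpr result was not tested.

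In the frontal cortex limma called none of the 35 genes, and 0.0681% of all genes tested. At an unadjusted p under 0.05 there were 2, Doc2b, a calcium sensor with a high calcium affinity, and Sv2a, the vesicle protein that binds levetiracetam. If no gene differed, a share of 0.05 would pass that threshold, so these 2 of 35 are described only. Doc2b stood at 5.88, 5.84 and 5.90 in saline and 5.68, 5.32 and 5.77 in MPTP cortex, close to the filter value, a difference of -0.28 (adjusted p = 0.678). Sv2a had 9.77, 9.73 and 9.70 against 9.91, 9.83 and 9.93, a difference of 0.16 (adjusted p = 0.802). None of the 49 other probe sets was called in cortex, and their differences ranged from -0.37 to 0.54. The second probe sets of Rph3a (0.54, adjusted p = 0.256 over all probe sets) and Syn3 (0.53, 0.235) had larger differences than Doc2b and Sv2a. Groups did not overlap for 6 genes, Doc2b lower and Sv2a, Syn2, Syt11, Vamp2 and Rims1 higher, where 13.3% of all genes had no overlap. The median difference of the 35 genes was 0.02, against 0.04 for all genes tested.

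Averaged over the 3 regions, with the arrays of an animal as a random block, 3 of the 35 genes were called higher (Synpr, Syt11 and Vamp2) and 3 lower (Stx1a, Syn1 and Syngr1), where 6.61% of all genes tested were called higher and 2.43% lower. This comparison uses the same 18 arrays as the regional ones. Synpr gave 0.33 (SE 0.073, adjusted p = 0.0065), Stx1a -0.24 (SE 0.071, adjusted p = 0.0355), Syn1 -0.19 (SE 0.05, adjusted p = 0.018) and Syngr1 -0.16 (SE 0.036, adjusted p = 0.00596). Rph3a was not called, at -0.16 (adjusted p = 0.0804), and its second probe set gave 0.07 (adjusted p = 0.679 over all probe sets). The second probe sets of Stx1a (-0.27) and Syngr1 (-0.32) were called as well. In all, 4 of the 49 other probe sets were called higher and 5 lower in the average, where 8.29% and 3.04% of all probe sets were. Besides those of Stx1a, Syngr1, Syt11 and Vamp2, they belonged to Syt4 (0.38), Syn3 (0.34), Napb (0.23), Syt1 (-0.21) and Cplx1 (-0.18), whose main probe sets gave 0.12, -0.03, 0.07, -0.03 and -0.04 and were not called. There were 2 calls without the second saline array of the striatum, and 3 without the second MPTP array of the cortex, without the third MPTP array of the midbrain or without the intensity trend.

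Syt11, a synaptotagmin that does not bind calcium, rose by 0.14 (SE 0.036, adjusted p = 0.0205) in that average. In the midbrain its values were 11.16, 10.96 and 11.06 in saline and 11.24, 11.29 and 11.32 in MPTP animals, without overlap, a difference of 0.22 (adjusted p = 0.057). In cortex it stood at 10.99, 10.91 and 11.00 against 11.03, 11.06 and 11.18, and in striatum at 11.04, 11.11 and 11.06 against 11.11, 11.13 and 11.17. The 4 other probe sets of Syt11 gave -0.07, -0.02, -0.06 and 0.14 in the average, and of these only the last was called. The mean over its probe sets was 0.02 and was not called.

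Vamp2, the main vesicle SNARE of the forebrain, rose by 0.15 (SE 0.048, adjusted p = 0.0472) in the average by its main probe set, and its second probe set fell. In the midbrain the main probe set read 10.34, 10.11 and 10.22 in saline and 10.43, 10.58 and 10.55 in MPTP animals, and the second read 9.35, 9.18 and 9.33 against 8.82, 9.07 and 8.86. Each probe set separated the groups, in opposite directions. Adjusted over all probe sets, the midbrain difference of the main one was 0.30 (adjusted p = 0.044) and that of the second -0.37 (adjusted p = 0.0236). In the average over regions the second gave -0.24 (adjusted p = 0.00652). No direction of Vamp2 with MPTP can be given from these arrays, and the mean over both probe sets, -0.04 in the average, was not called.

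**Figure D3:**
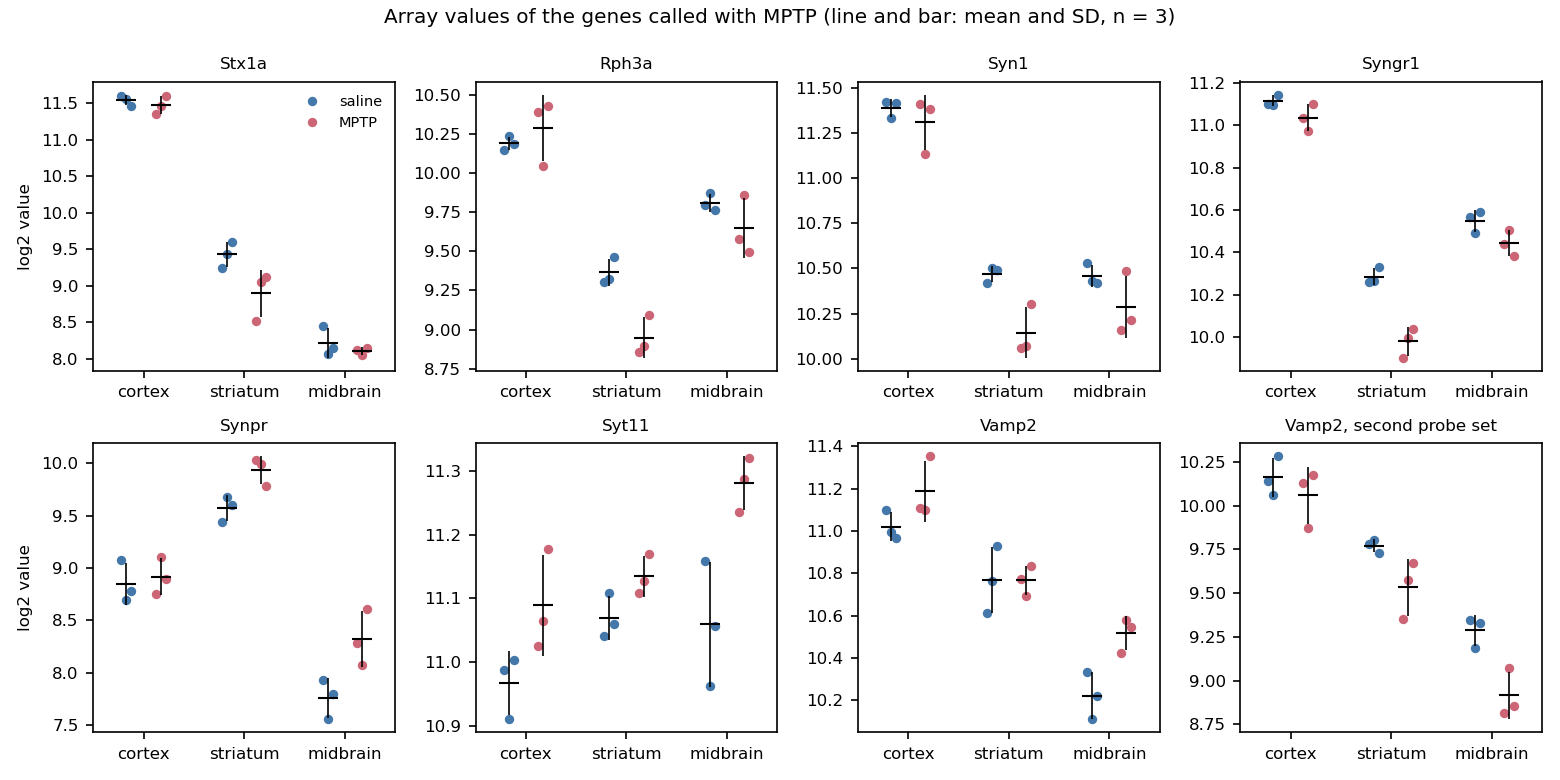
Log2 value of each array for the 7 genes called by their main probe set in a comparison of MPTP with saline, and for the second probe set of Vamp2, in frontal cortex, striatum and midbrain (blue saline, red MPTP; lines and bars are mean and SD of 3 arrays; vertical scales differ and do not start at 0). Stx1a, Rph3a, Syn1 and Syngr1 separate in striatum, Synpr in striatum and midbrain, and the probe sets of Vamp2 move apart in midbrain.

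A difference between regions in the response to MPTP was not shown for any of the 35 genes. limma called 0 of them in each of the 3 tests of the difference in response, against 0.0596% of all genes when the striatum was set against cortex, 0.0% when the midbrain was, and 0.0681% for the response in midbrain less that in striatum. These tests reuse the arrays of the regional comparisons. At an unadjusted p under 0.05 there were 5, 2 and 3. The share of all genes at that threshold is not given here, so these counts are a description only. The smallest p for striatum minus cortex was that of Rph3a, whose response differed by -0.52 (95% interval -0.80 to -0.23, adjusted p = 0.296), followed by Stx1a at -0.47 (-0.82 to -0.11, adjusted p = 0.566). For Synpr the response in midbrain minus that in cortex was 0.50 (0.13 to 0.86, adjusted p = 0.792). For Stx1a the response in midbrain minus that in striatum was 0.42 (0.07 to 0.78, adjusted p = 0.799).

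Most of these genes differed between regions, and most were highest in the cortex. In saline animals 24 of the 35 were called lower in striatum than in frontal cortex and 3 higher, where 23.5% and 20.5% of all genes tested were. In midbrain against cortex 21 were lower and 6 higher, where 23.6% and 27.8% of all genes were. In midbrain against striatum 15 were higher and 11 lower, where 33.4% and 24.8% of all genes were. The median differences were -0.55, -0.42 and 0.05, against -0.00, 0.02 and 0.05 for all genes tested. The 3 comparisons share arrays, since each region enters more than once. They treated the arrays of different regions as independent, although the regions came from the same animals. The highest mean was in the cortex for 24 genes, of which 18 were called over the next region, in the midbrain for 6 (5 called) and in the striatum for 5 (3 called). This last count was not made over all genes tested, so it only describes the 35 genes.

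The MPTP animals, which are other mice, gave nearly the same picture. There 25 of the 35 genes were lower and 3 higher in striatum than in cortex (30.4% and 18.8% of all genes), 21 lower and 7 higher in midbrain than in cortex (25.0% and 29.3%), and 18 higher and 12 lower in midbrain than in striatum (37.7% and 21.5%). Of the genes called in saline animals, 26 of 27, 26 of 27 and 26 of 26 were called again with the same sign, and none with the opposite one. Over all genes tested the shares called again with the same sign were 84.1%, 87.4% and 86.7%. The genes not called again were Rab3a for striatum against cortex and Snap25 for midbrain against cortex. For Rab3a this depends on the probe set: in MPTP animals the second one gave -0.54 (limma, adjusted p = 4.75e-07 over all probe sets).

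**Figure D4:**
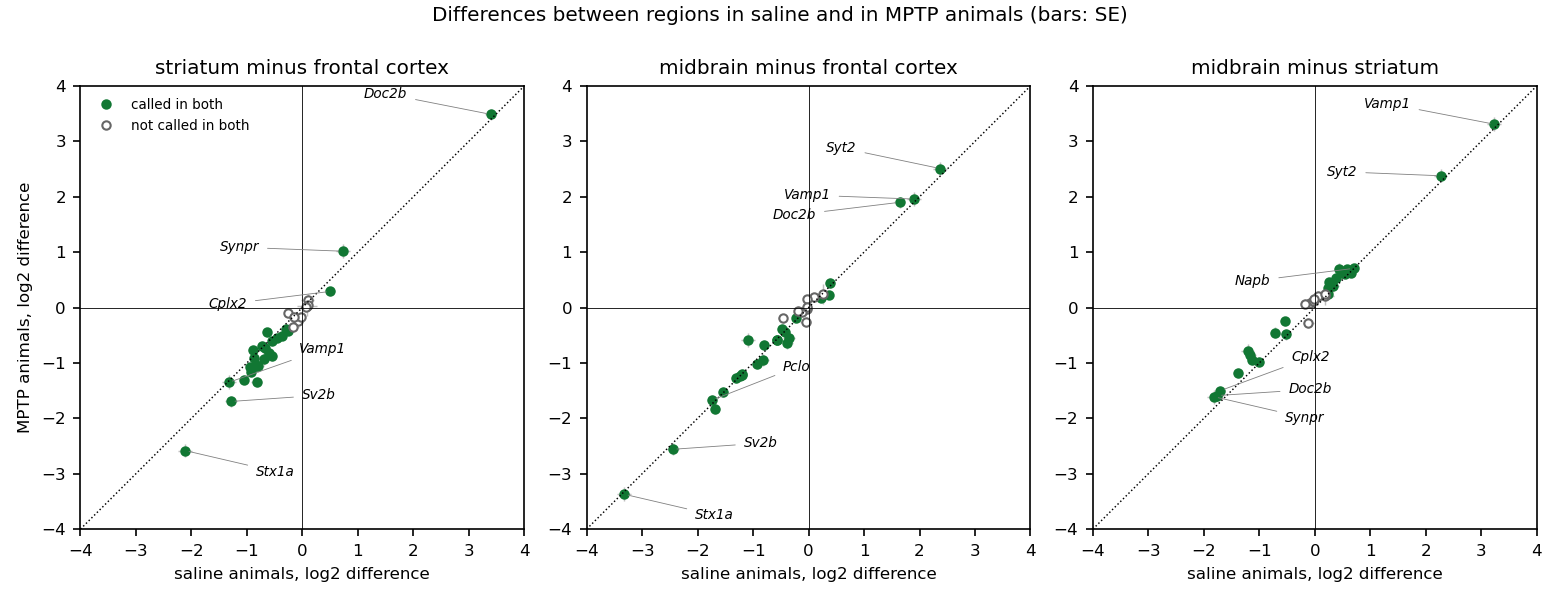
Difference between regions on the log2 scale in saline animals (horizontal) and in MPTP animals (vertical) for 35 genes, 1 panel per pair of regions, with bars of 1 SE and the line of equality dotted. Filled points were called in both; Stx1a and Doc2b in striatum minus cortex (-2.12 and 3.39 in saline) and Stx1a and Syt2 in midbrain minus cortex (-3.33 and 2.37) mark the ends.

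Among the SNAREs, Stx1a had the widest range of a gene that was highest in cortex. Its saline values were 11.60, 11.56 and 11.46 in cortex and 8.45, 8.06 and 8.14 in midbrain, with striatum between them. Midbrain minus cortex was -3.33 (SE 0.12, adjusted p = 1.05e-16) and midbrain minus striatum -1.21. All 3 regions were apart without overlap. Snap25 was also lower than in cortex, by -0.64 in striatum and -0.47 in midbrain.

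The vesicle SNAREs Vamp1 and Vamp2 differed in opposite directions between midbrain and each of the other regions. Both were called lower in striatum than in cortex. Vamp1, the form known for the brainstem and spinal cord, stood at 10.09, 9.96 and 10.14 in saline cortex, 8.57, 8.83 and 8.79 in striatum and 11.96, 11.94 and 11.999 in midbrain. The midbrain was 3.23 (SE 0.13, adjusted p = 2.04e-16) above striatum and 1.90 above cortex. Vamp2 stood at 11.10, 10.99 and 10.97 in cortex, 10.61, 10.76 and 10.93 in striatum and 10.34, 10.11 and 10.22 in midbrain, with a difference of -0.80 between midbrain and cortex and of -0.55 between midbrain and striatum. Its second probe set gave the same order between midbrain and cortex, at -0.88.

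Between cortex and midbrain, the fast calcium sensors Syt1 and Syt2, of the same family, split in the same way. Syt1, the main sensor of the forebrain, had 12.83, 12.74 and 12.73 in saline cortex, 12.06, 12.14 and 12.09 in striatum and 11.83, 11.32 and 11.56 in midbrain, with -1.20 between midbrain and cortex. Syt2, the sensor known for hindbrain and fast inhibitory terminals, had 6.75, 6.71 and 6.92 in cortex, 6.96, 6.95 and 6.76 in striatum and 8.99, 9.28 and 9.21 in midbrain, 2.37 (SE 0.12, adjusted p = 2.83e-14) above cortex. Syt1 and Syt2 thus ran in opposite directions between cortex and midbrain. For Syt2 the probe sets disagreed on striatum against cortex: the main one gave 0.10, and the others 1.36 and 1.39, which were called.

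Of the other calcium sensors, Doc2b had the largest striatal excess of the 35 genes. It stood at 5.88, 5.84 and 5.90 in saline cortex, 9.21, 9.38 and 9.22 in striatum and 7.54, 7.48 and 7.52 in midbrain. The striatum was 3.39 (SE 0.10, adjusted p = 4.22e-18) above cortex, and midbrain minus striatum was -1.75. Syt5, a sensor of dense-core and other vesicles, had 8.94, 8.92 and 9.07 in cortex, 8.75, 8.81 and 8.89 in striatum and 7.67, 7.30 and 7.34 in midbrain, a difference of -1.54 between midbrain and cortex. Cortex and striatum were not called apart for Syt5 in saline animals (-0.16). Syt7, a sensor of asynchronous release, differed from cortex by -0.80 in striatum and -0.82 in midbrain, and Rph3a by -0.82 and -0.38, whereas Syt4 and Syt11 had no regional call in saline animals.

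The complexins, which clamp and activate the assembled SNAREs, also ran in opposite directions. Cplx1 stood at 12.38, 12.32 and 12.37 in saline cortex, 11.96, 12.01 and 11.98 in striatum and 12.60, 12.53 and 12.58 in midbrain, lowest in striatum. Cplx2 stood at 11.08, 11.14 and 11.15, at 11.67, 11.60 and 11.63 and at 9.96, 9.80 and 10.03 in the same order, highest in striatum. Midbrain minus striatum was 0.59 for Cplx1 and -1.70 (SE 0.075, adjusted p = 1.96e-15) for Cplx2. Nsf, the ATPase that takes SNAREs apart, was lower in striatum than in cortex (-0.55), as was its adaptor Napb (-0.89). Napb stood at 11.14, 11.07 and 11.14 in cortex, 10.11, 10.19 and 10.38 in striatum and 11.06, 10.77 and 10.97 in midbrain.

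In the vesicle membrane, Sv2b, an SV2 form known for glutamatergic neurons, stood at 11.42, 11.35 and 11.37 in saline cortex, 9.95, 10.13 and 10.19 in striatum and 9.12, 8.58 and 9.09 in midbrain. Midbrain minus cortex was -2.45 (SE 0.11, adjusted p = 2.41e-15). Sv2a, the widespread form, was instead highest in midbrain, with 10.16, 10.09 and 10.04 there against 9.77, 9.73 and 9.70 in cortex and 9.39, 9.47 and 9.47 in striatum. Synpr stood at 9.07, 8.69 and 8.78 in cortex, 9.44, 9.68 and 9.60 in striatum and 7.93, 7.56 and 7.79 in midbrain. Midbrain minus striatum was -1.81 (SE 0.13, adjusted p = 9.94e-12). Its relative synaptophysin, Syp, was highest in cortex, with 11.09, 11.02 and 11.05, and had 9.96, 10.14 and 10.24 in striatum and 10.73, 10.56 and 10.60 in midbrain. Synpr and Syp thus had opposite signs between midbrain and striatum (-1.81 and 0.52). Syngr1 differed from cortex by -0.83 in striatum and -0.57 in midbrain, and Syngr3, the form that binds the dopamine transporter, had no saline call, at 9.61, 9.57 and 9.81 in cortex, 9.55, 9.58 and 9.64 in striatum and 9.78, 9.46 and 9.69 in midbrain.

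**Figure D5:**
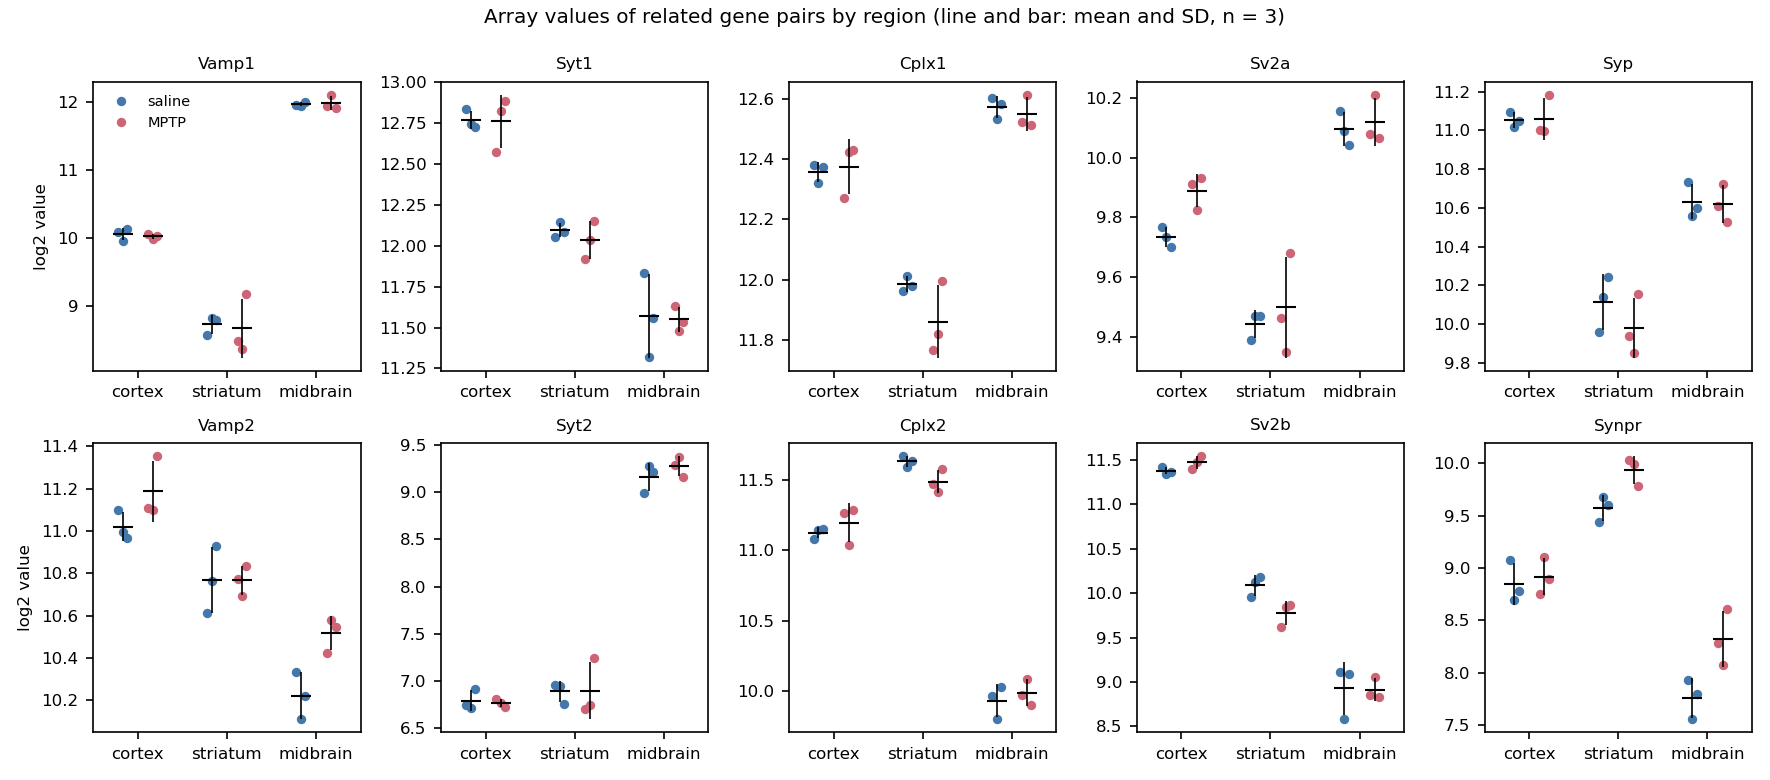
Log2 value of each array for 5 pairs of related genes (upper and lower row) in frontal cortex, striatum and midbrain (blue saline, red MPTP; lines and bars are mean and SD of 3 arrays; vertical scales differ and do not start at 0). Within each pair the direction between midbrain and another region differs: Vamp1, Syt2, Cplx1 and Sv2a are highest in midbrain, while Vamp2, Syt1, Cplx2, Sv2b and Synpr are lowest there.

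The synapsins did not share a pattern. Syn1 differed by -0.92 in striatum and -0.93 in midbrain from cortex, where it stood at 11.42, 11.33 and 11.42, and its midbrain values, 10.53, 10.43 and 10.42, overlapped the striatal ones. Syn2 stood at 10.13, 10.24 and 10.25 in saline cortex, 9.31, 9.46 and 9.79 in striatum and 9.95, 9.64 and 9.98 in midbrain, lowest in striatum. Syn3, a form of developing neurons, was not called between regions, at 7.28, 7.40 and 7.10, 7.49, 7.07 and 7.45, and 7.09, 8.14 and 7.31, with the second midbrain array apart from the other two.

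Of the active zone genes 4 of 5 were called lower in striatum, and the same 4 lower in midbrain, than in saline cortex: Unc13a, Rims1, Bsn and Pclo. Bsn stood at 10.43, 10.42 and 10.52 in cortex, 9.77, 9.93 and 10.02 in striatum and 8.80, 8.73 and 8.78 in midbrain, where midbrain minus cortex was -1.69 (SE 0.088, adjusted p = 5.64e-14). Pclo, its relative Piccolo, stood at 11.19, 11.23 and 11.22 in cortex, 10.39, 10.50 and 10.54 in striatum and 9.63, 9.25 and 9.54 in midbrain, with -1.74 between midbrain and cortex. The 2 other probe sets of Pclo were 0.55 and 0.66 higher in midbrain than in cortex, both called, so the direction for Pclo depends on the probe set. All 3 probe sets were lower in striatum than in cortex (-0.73, -0.50 and -0.45).

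Rims1, which ties vesicles to calcium channels, stood at 10.38, 10.34 and 10.38 in saline cortex, 9.20, 9.38 and 9.34 in striatum and 9.34, 9.00 and 9.06 in midbrain, with differences from cortex of -1.06 and -1.23. Its relative Rims2 was not called in any saline pair, at 8.97, 8.77 and 8.74 in cortex, 8.83, 8.90 and 8.92 in striatum and 8.92, 8.59 and 8.80 in midbrain. Unc13a, the priming factor Munc13-1, differed from cortex by -0.60 in striatum and -1.31 in midbrain. Rab3a stood at 11.34, 11.28 and 11.27 in cortex, 11.04, 11.03 and 11.02 in striatum and 11.25, 11.42 and 11.16 in midbrain. For Rab3a striatum minus cortex was -0.27, which was called. Rab3c was 0.39 higher in midbrain than in cortex, with 11.03, 10.62 and 10.68 against 10.38, 10.31 and 10.46, and had 10.14, 10.27 and 10.28 in striatum. The endocytic genes Amph, Dnm1 and Synj1 shared an order: each was highest in cortex and lowest in striatum, with all 3 pairs of saline regions called. Their striatal differences from cortex were -0.87, -0.84 and -0.45.

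Other probe sets of the called genes mostly repeated the saline regional differences. For striatum against cortex all 34 had the same sign and 31 were called, and for midbrain against cortex 29 of 32 had the same sign, with 27 called the same way and 2, both of Pclo, called the opposite way. For midbrain against striatum 32 of 36 had the same sign, 28 were called the same way and 2, again of Pclo, the opposite way.

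Some other genes of the same processes, from lists chosen beside these 36, were called with MPTP. These counts stand against 0.809% of all genes called lower and 1.29% higher in the striatum, and 0.383% lower and 2.15% higher in the midbrain. Of 35 tested further genes of the release machinery, 1 fell in the striatum, Syt17 (-0.65, adjusted p = 0.0435), and 1 rose in the midbrain, the dense-core vesicle priming factor Cadps (0.33, adjusted p = 0.0452). The median of that list in the striatum was -0.15, against -0.03 for all genes tested, with 28 of 35 differences negative. At an unadjusted p under 0.05 there were 16 of the 35 in the striatum, against 1912 of the 11741 genes tested, and 4 in the midbrain. The midbrain count over all genes is not given here. Striatal groups did not overlap for 14 of them, 12 lower and 2 higher, where 23.2% of all genes had no overlap. The level of that list ranged from 8.08 to 8.15 in saline and from 7.91 to 7.99 in MPTP striatum. Of 9 tested presynaptic calcium channel subunits 2 fell in the striatum: Cacna1a, the pore of the P/Q-type channel that triggers release (-0.47, adjusted p = 0.0288), and the beta subunit Cacnb1 (-0.43, adjusted p = 0.00899). In the midbrain Cacnb1 fell as well (-0.37, adjusted p = 0.0204) and Cacnb4 rose (0.44, adjusted p = 0.018).

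Of 15 tested genes that load vesicles, 1 fell in the striatum, the glutamate transporter Slc17a6 (-0.74, adjusted p = 0.0191), and 1 rose in the midbrain, the proton pump subunit Atp6v1d (0.37, adjusted p = 0.0209). Of 20 tested genes of vesicle recycling and of 22 tested genes of the postsynaptic density, limma called none in either region. At an unadjusted p under 0.05 there were 6 and 5 in the striatum and 7 and 3 in the midbrain. The striatal count over all genes is the one given above, and that of the midbrain is not given here. Of 23 tested general neuronal genes 2 fell in the striatum, Chgb (-0.27, adjusted p = 0.0242) and Gng3 (-0.24, adjusted p = 0.0409), and none was called in the midbrain. In the frontal cortex none of these lists had a called gene.

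Between regions of saline animals, the further release machinery had counts like those of the 36 genes: 21 of 35 were lower and 5 higher in striatum than in cortex, and 23 lower and 5 higher in midbrain than in cortex. Over all genes tested, as above, 23.5% were lower and 20.5% higher in striatum than in cortex, 23.6% and 27.8% in midbrain than in cortex, and 24.8% and 33.4% in midbrain than in striatum. The postsynaptic genes ran otherwise. In striatum against cortex 7 of 22 were higher and 6 lower, while all 22 were lower in midbrain than in cortex and 20 of 22 lower in midbrain than in striatum. General neuronal genes were lower in striatum than in cortex in 14 of 23 and higher in 3, and in midbrain against cortex 9 were higher and 7 lower. Differences between the lists were not tested.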

How the data were processed

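The deposited table holds log2 intensities per probe set for 18 Affymetrix arrays. RMA is the tool named in the submitters' processing notes; its version and settings, and the arrays' scan dates, are not given in the sources used here. Of 45101 probe sets, 34958 were annotated to 1 gene, 932 to several and 9211 to none. Symbols of 34754 were updated by Entrez ID through RefSeq (GRCm38.p6), and 204 kept the array's symbol.

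The probe set with the highest mean represented each of 18194 genes. Genes with a mean in at least 1 region at or above the median of all deposited values (5.18) were tested. limma 3.58.1 in R 4.3.3 fitted 1 mean per group over all 18 arrays (12 residual degrees of freedom), with moderated variances that followed intensity and Benjamini-Hochberg adjustment per comparison over 11741 genes, for 13 comparisons. A comparison of other probe sets used the same model on probe sets. The average over regions had the animal, read as treatment and replicate number, as a random block (correlation 0.00558). The code was tested on simulated data.

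Members and lists were chosen with earlier results of these data known. Named were all 36 genes, with array values for those called with MPTP, the 4 largest differences per direction and region pair, and related pairs, and from each other list up to 4 genes by p. The labels call the arrays biological replicates and give 3 animals per treatment. Same-numbered saline and MPTP arrays were not paired (correlation of deviations -0.194 to 0.294). Same-numbered arrays of a treatment exceeded 0.1 in every pair only for midbrain and cortex of saline animals (0.225 to 0.342) and midbrain and striatum of MPTP animals (0.117 to 0.183). The alternatives tried were other filters, normalizations, probe set summaries, variance models, sample sets, blocks and leaving out each array.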

Additional observations from a re-analysis of the deposited data

How the results depend on the processing

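The counts of the 35 genes called between regions, in saline and in MPTP animals, stayed within 1.5 times the reported ones under every alternative run: with 1 array left out they ranged from 26 to 27, 25 to 29 and 26 to 27 in saline animals (striatum against cortex, midbrain against cortex, midbrain against striatum) and from 27 to 29, 25 to 28 and 27 to 29 in MPTP animals. No gene was called in frontal cortex or in a test of the difference in response under any alternative. Calls with MPTP moved. In the striatum the count of 4 became 7 with a second quantile normalization, 1 with the mean over probe sets and 1 without the intensity trend, and ranged from 0 to 4 with 1 array left out. In the midbrain the count of 1 became 3 with the 75th percentile filter, 2 with arrays centred on the median, 0 with the mean over probe sets and 5 with array weights, and ranged from 0 to 4. The replicate block, with replicate numbers that did not pair saline with MPTP arrays, gave 2 calls in the midbrain. In the average over regions the count of 6 became 3 without the intensity trend and ranged from 2 to 8. Vamp2 reversed in that average, to -0.042, with the mean over probe sets, since its probe sets differ in sign. A block by animal, added after seeing the data, moved no count between regions by over 1.5 times. The causes of the other moves were not tested. Signal over background limits Doc2b in cortex and Sv2c everywhere.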
